A study of Mus musculus with 5 samples.

Results

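The dual-specificity MAP kinase phosphatases are enzymes that switch MAP kinases off, and 10 of their genes were followed here: Dusp1, Dusp2, Dusp4, Dusp5, Dusp6, Dusp7, Dusp8, Dusp10, Dusp14 and Dusp16. They were taken by symbol from a count table of 27179 genes, and all 10 were found and had enough counts to test. The libraries were made from Langerhans cells, phagocytes that reside in the epidermis, of C57BL/6 mice at an age of 1 week. The 2 wild type libraries and the 3 Suz12 cKO libraries each came from 5000 cells purified from skin. Suz12 cKO is a conditional knockout of Suz12, a core subunit of the Polycomb repressive complex that methylates histone H3, and the driver of the deletion is not given in the sources used here. The libraries of a genotype are called biological replicates in the design text, with no word on litters or pooled animals. Their cDNA was made by SMART-Seq, a method for very small RNA inputs, with an amplification step.

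MAP kinases (ERK, JNK and p38) are activated by phosphorylation of a threonine and a tyrosine in one loop, and these phosphatases remove both phosphates. Many of the genes are themselves transcribed in response to MAP kinase activity, so they act as negative feedback and their messenger RNA is often read as a trace of recent signalling. Dusp1, Dusp2, Dusp4 and Dusp5 encode inducible nuclear enzymes, Dusp6 and Dusp7 cytoplasmic enzymes selective for ERK, and Dusp8, Dusp10 and Dusp16 enzymes that act mainly on JNK and p38. Dusp14 encodes a small phosphatase that lacks the N-terminal docking domain of the others. In phagocytes Dusp1 is known for limiting the output of inflammatory cytokines, and it is also one of the genes that cell dissociation induces.

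The libraries held 12090062 to 25725900 counts assigned to genes, and cKO replicate 2 was the deepest. Values below are CPM, the count per 1000000 counts of the library after TMM normalisation, and 3 counts correspond to 0.106 to 0.258 CPM. Suz12 had 88 and 39 counts in wild type and 0, 0 and 7 counts in cKO replicates 1 to 3, so the cKO libraries lay below the wild type ones. All 10 markers fixed for Langerhans cells were detected and summed to 97919 to 119674 CPM. The highest of them were Cd74, H2-Ab1 and H2-Aa, with means of 39479, 35801 and 22821 CPM over the 5 libraries. Cd207 ranged from 6639 to 14596.5 CPM. The source label names alveolar macrophages. Of 8 markers of those cells, 4 (Siglecf, Car4, Chil3, Fabp1) had no count in any library, while the 8 summed to 193 to 692 CPM. The rest were detected. Ear2 ranged from 63.8 to 466 CPM, Krt79 from 91.3 to 177 CPM and Abcg1 from 4.82 to 31.1 CPM. The top Ear2 value came from wild type replicate 1. Marco had 864 counts in that library, 2 in wild type replicate 2 and 0 in each cKO library. Lists of markers of other cells were summed in the wild type and then in the cKO libraries. The keratinocyte sums (13 of 13 genes detected) ran from 276 to 648 and from 630 to 999 CPM, and the T cell sums (8 of 9 genes) from 461 to 692 and from 262 to 926 CPM. The melanocyte sums (6 of 6) ran from 39.6 to 429 and from 33.1 to 145 CPM, and those of fibroblasts and endothelium (6 of 8, none for Cdh5 and Kdr) from 21.2 to 90.9 and from 9.76 to 211 CPM. The neutrophil sums (3 of 6, none for S100a9, Retnlg and Cxcr2) ran from 170.3 to 185 and from 239.9 to 536 CPM and were nearly all Mmp9, and those of mast cells (2 of 6, none for Cpa3, Mcpt4, Tpsb2 and Ms4a2) reached at most 5.81 CPM. These are bulk samples, so a change in the number of cells that carry a transcript and a change in transcript per cell cannot be told apart.

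Dusp1 and Dusp2 stood far above the other phosphatase genes. Per kilobase of the counted length, Dusp2 had a mean level of 449 CPM per kb over the 5 libraries (range 312 to 541) and Dusp1 one of 417 CPM per kb (range 220 to 676). Their ranges overlapped, and Dusp2 lay above Dusp1 in 3 of the 5 libraries. Together they held 87.2% to 91.9% of the summed per-length level of the 10 genes in every library. Dusp5 came next at 58.7 CPM per kb (32.9 to 105), below Dusp1 in all 5 libraries and with no overlap of the ranges. Dusp14, Dusp6 and Dusp4 followed with means of 15.1, 8.97 and 8.27 CPM per kb. Those 3 ranges overlapped, and those of Dusp5 and Dusp14 overlapped too, although Dusp5 was higher in each library. Dusp16, Dusp10, Dusp7 and Dusp8 formed the lowest group at means of 1.86, 1.77, 1.67 and 1.0 CPM per kb, and neighbours among them could not be ordered beyond their spread. No library put Dusp4 below Dusp16. The counted length of Dusp5, 1155 bases, is close to its coding length of 1152 bases in GENCODE, where its exons span 2473 bases. With GENCODE exon lengths Dusp5 had 27.4 CPM per kb, and the order of the first 6 genes was as before.

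**Figure D1:**
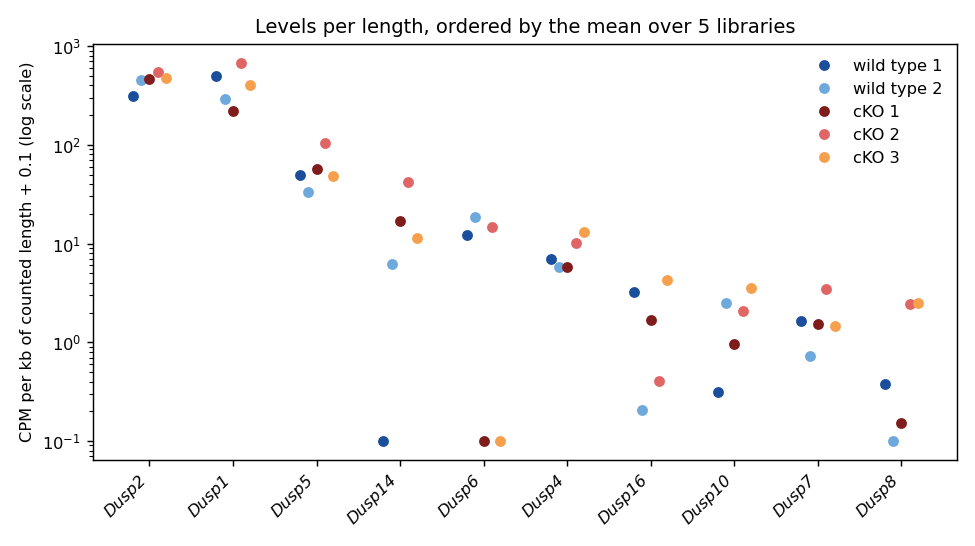
Level per kilobase of counted length, with 0.1 added so that zeros can be drawn on the log axis; each point is 1 library and genes are ordered by their mean. Dusp2 and Dusp1 lie between 220 and 676 CPM per kb in all libraries, while Dusp14 and Dusp6 have libraries at 0.

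Sequence upstream of the start sites is shown for 4 of the genes that held a match to a searched sequence. Transcription of these phosphatases is known to be driven by signal-responsive elements near the promoter. RefSeq windows on GRCm38.p6, the assembly whose coordinates are those of mm10, were found for 9 of the 10 genes, all but Dusp4, and the 250 bases before each start were searched on both strands. For Dusp7, Dusp8, Dusp14 and Dusp16 the RefSeq start lies inside the span of the counted gene, so those windows precede 1 annotated start and not the whole gene. The full cyclic AMP response element, TGACGTCA, was found once in Dusp1 and 2 times in Dusp8, and 1.55% of all 32851 windows held it. Its core TGACG, which is also part of every full site, was found in Dusp1, Dusp5, Dusp8 and Dusp16, against 17.8% of all windows. Dusp5 had 2 adjoining CArG boxes, the core of the serum response element (1.47% of windows hold any), and the TATAA match of that promoter lies inside this pair. Dusp14 had the ETS core CCGGAA (12% of windows). Dusp1 and Dusp2 each had an E-box, CACGTG (6.02% of windows), and none of the 9 had an AP-1 site, TGACTCA or TGAGTCA (4.46% of windows). Dusp6, Dusp7 and Dusp10 held none of the searched sequences. Capitals below mark the core and the full cyclic AMP response element in Dusp1, the full elements in Dusp8, the CArG boxes in Dusp5 and the ETS core in Dusp14, read 5′ to 3′ on the strand of the gene. The stretches are chr17:26508596-26508675 for Dusp1 and chr7:142095328-142095403 for Dusp8, both on the minus strand. They are chr19:53529051-53529094 on the plus strand for Dusp5 and chr11:84068405-84068434 on the minus strand for Dusp14.
Dusp1: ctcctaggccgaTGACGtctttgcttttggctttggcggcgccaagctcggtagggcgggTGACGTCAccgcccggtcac
Dusp8: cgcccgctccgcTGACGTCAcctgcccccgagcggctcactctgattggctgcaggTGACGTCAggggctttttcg
Dusp5: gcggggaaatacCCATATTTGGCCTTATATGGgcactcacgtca
Dusp14: cacgcgcggcgcCCGGAAcccacgctcgtc

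Dusp1 and Dusp8 thus share the same palindrome before the RefSeq start used here, which for Dusp8 puts it inside the counted gene, while their mean levels were 417 and 1.0 CPM per kb. The match is a description of the letters and not evidence of a bound factor. All 9 windows were rich in CpG, with a GC content of at least 50% and a CpG frequency of at least 0.6 of that expected from base composition, against 33.5% of all windows. Their median GC content was 68.7%, and that of all windows 52.7%. The set of all windows was not limited to genes tested here, whereas every member was tested. This holds for the shares of the searched sequences too.

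The comparison of genotypes asks whether these feedback genes differ when Langerhans cells lose Suz12. None of the 10 was called by edgeR's quasi-likelihood test with Benjamini-Hochberg adjustment (0% of 9988 tested genes were called), and each had an adjusted p of 0.999. None had an unadjusted p under 0.05, a level that 4.15% of tested genes reached. Suz12, the targeted gene, was not called either (log2 fold change -4.11, standard error 2.87, edgeR adjusted p = 0.999). The lack of calls is therefore no evidence of equal levels. DESeq2 called none of the 9 members to which it gave an adjusted p (lowest 0.879), against 2.12% of genes. Limma-voom called none either, and 0% of genes. Fitted log2 fold changes, cKO minus wild type, were above 0 for 9 of the 10 genes, against 52.5% of tested genes. Their median was 0.65, and that of all tested genes 0.06. In 2 of the 10, Dusp2 and Dusp14, the lowest cKO library exceeded the highest wild type library, and in 0 the reverse held, against 8.87% and 10.2% of tested genes.

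**Figure D2:**
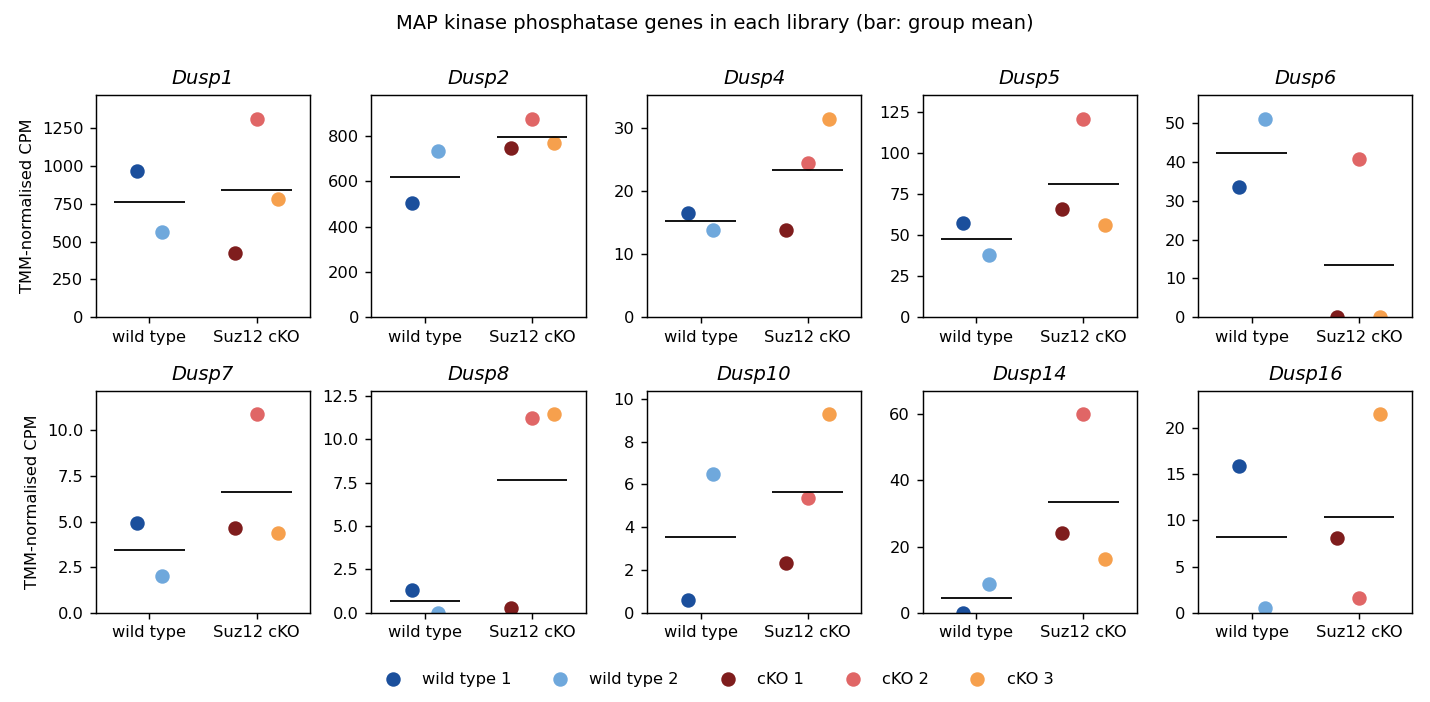
TMM-normalised CPM of each gene in the 2 wild type and 3 Suz12 cKO libraries, each panel on its own linear scale from 0; points are libraries and bars are group means. The groups separate in Dusp2 and Dusp14 alone, and Dusp6 has no count in cKO replicates 1 and 3.

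Among the inducible nuclear enzymes, Dusp1 (chromosome 17, 26505591 to 26508472) varied more within a genotype than between genotypes. It lay at 965 and 565 CPM in wild type replicates 1 and 2 and at 427, 1313 and 780.1 CPM in cKO replicates 1 to 3. The lowest and the highest library were both cKO, 3.08-fold apart, and the wild type libraries lay between them. Group means were 765 ± 282 CPM (SD, n = 2) and 839.7 ± 446 CPM (SD, n = 3), and the log2 fold change was 0.13 (standard error 0.51). The estimate turned to -0.34 without cKO replicate 2 and to -0.18 without wild type replicate 2.

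Dusp2 (chromosome 2, 127336159 to 127338377), which encodes a nuclear phosphatase of immune cells, was the steadiest of the set. It measured 505 and 734 CPM in the wild type pair and 747, 876 and 770.4 CPM in the cKO group. The cKO libraries lay within 1.17-fold of one another, and above both wild type libraries, though cKO replicate 1 exceeded wild type replicate 2 by little. The highest library was 1.73 times the lowest, where the median of this ratio over 1585 tested genes averaging 100 CPM or more was 2.21. The log2 fold change was 0.36 with standard error 0.29 (edgeR adjusted p = 0.999), and leaving out wild type replicate 1 or 2 gave 0.12 or 0.66. Wild type replicate 1, where Dusp2 was lowest, was also the library with the lowest keratinocyte sum (276 CPM against 630 to 999 CPM in the others). Dusp2 was highest in cKO replicate 2, which also had the highest sum (999 CPM). In between, cKO replicate 1 had a lower sum (630 CPM) than wild type replicate 2 (648 CPM), unlike Dusp2. The part of those cells in the difference was not tested. Mmp9, the 1 gene that makes up nearly all of the neutrophil sum, put the 5 libraries in the same order as Dusp2. The neutrophil markers S100a9, Retnlg and Cxcr2 had no count in any of them. Csf3r had 1 and 0 counts in the wild type pair and 151, 368 and 0 counts in cKO replicates 1 to 3. S100a8 had 73 counts in cKO replicate 3 and 0 in the other libraries. The part of neutrophils in the difference was not tested.

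Dusp5 (chromosome 19, 53529145 to 53541809) encodes a nuclear phosphatase selective for ERK. It measured 57.3 and 38.0 CPM in the wild type pair and 66.3, 121 and 56.1 CPM in the cKO group. The groups overlapped by 1 library, cKO replicate 3, which lay just under wild type replicate 1, and cKO replicate 2 stood apart at the top. The log2 fold change was 0.77 (standard error 0.56), and it was 0.36 without cKO replicate 2. Dusp4 (chromosome 8, 34807610 to 34819894), which encodes a nuclear phosphatase of ERK and JNK, measured 16.6 and 13.8 CPM in the wild type pair and 13.9, 24.6 and 31.5 CPM in the cKO group. One cKO library lay with the wild type pair and the others above it. Its log2 fold change was 0.62 (standard error 1.13), and 0.35 without cKO replicate 3.

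The ERK-selective cytoplasmic pair differed in pattern. Dusp6 (chromosome 10, 99263231 to 99267489), the classical feedback phosphatase of growth factor signalling, had 634 and 867 counts in wild type and 0, 1150 and 0 counts in cKO replicates 1 to 3. In CPM these are 33.6 and 51.1, then 0, 40.7 and 0. Dusp6 was thus either near the wild type level or without a count within the same genotype, where no count allows up to 0.188 CPM in cKO replicate 1 and 0.258 CPM in cKO replicate 3 (3 counts). Such floors, and the intervals below, cover counting error only, since amplified reads are not independent molecules. The log2 fold change was -1.64 (standard error 2.61). Without cKO replicate 2 the fit gave -12.39 (edgeR adjusted p = 0.735), a fitted value that is no measured fold because both libraries left had no count. DESeq2 gave Dusp6 no p-value. With all libraries limma-voom gave -8.21 (standard error 2.43, limma-voom unadjusted p = 0.00635, adjusted p = 0.538), so the estimate depends on the method. Dusp7 (chromosome 9, 106368560 to 106375724), its close relative, was scarce and present in each library, at 4.92 and 2.00 CPM in the wild type pair and 4.63, 10.9 and 4.38 CPM in the cKO group. The groups overlapped, with the highest value in cKO replicate 2, and the log2 fold change was 0.93 (standard error 2.34), with 0.38 when cKO replicate 2 was left out, 0.45 without wild type replicate 2 and 1.73 without the other one.

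The JNK and p38 phosphatase genes were near the limit of detection in part of the libraries. Dusp8 (chromosome 7, 142079487 to 142095907) had 25 and 0 counts in wild type and 4, 317 and 133 in cKO replicates 1 to 3. The wild type values are 1.32 CPM (95% exact Poisson interval 0.856 to 1.95) and 0 CPM, and the cKO values 0.250 CPM (0.0682 to 0.641), 11.2 CPM and 11.4 CPM. High values were therefore confined to cKO replicates 2 and 3 among these 5 libraries, while cKO replicate 1 lay between the wild type libraries. The log2 fold change was 3.51 (standard error 3.41), and it was 10.12 without wild type replicate 1, which is no measured fold as the wild type library left had no count. Dusp10 (chromosome 1, 184034381 to 184075636) lay at 0.582 CPM (0.291 to 1.04) and 6.48 CPM in the wild type pair and 2.32, 5.35 and 9.27 CPM in the cKO group. Its wild type libraries were further apart in fold than its cKO libraries, and the log2 fold change of 0.67 (standard error 2.48) was -0.20 without wild type replicate 1. Dusp16 (chromosome 6, 134715468 to 134807063) measured 15.9 and 0.531 CPM in the wild type pair and 8.07, 1.56 and 21.5 CPM in the cKO group. Both genotypes held libraries at either end of its range, which spanned 40.5-fold, and the log2 fold change of 0.33 (standard error 2.29) was -0.63 without wild type replicate 2 and -0.79 without cKO replicate 3.

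Dusp14 (chromosome 11, 84048033 to 84069256) was the other gene whose groups did not overlap. It had 0 and 149 counts in wild type and 386, 1693 and 188 counts in cKO. In CPM these are 0 and 8.78, then 24.2, 59.9 and 16.1. The 3 cKO libraries were spread over 3.71-fold, and the higher wild type library lay below the lowest of them. The log2 fold change was 2.93 with standard error 2.23 (edgeR adjusted p = 0.999), and 1.93 without wild type replicate 1. Leaving out replicate 2 instead gave 12.30, which is no measured fold since the remaining wild type library had no count. The keratinocyte sum was again lowest in wild type replicate 1, at 276 CPM, and highest in cKO replicate 2. In between it was 648 CPM in wild type replicate 2 and 630 and 847 CPM in cKO replicates 1 and 3, another order than that of Dusp14. Its part in the difference was not tested.

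**Figure D3:**
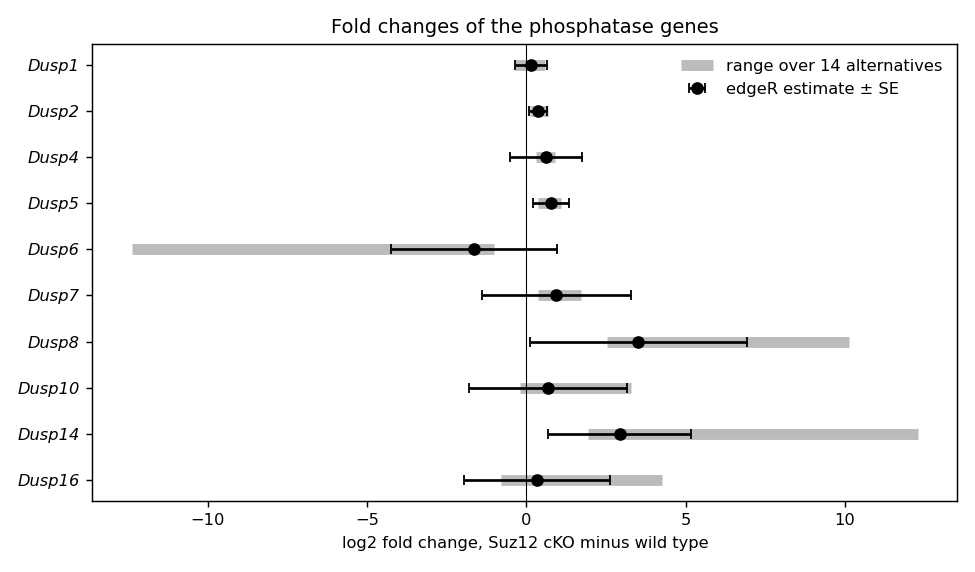
Log2 fold change of each gene, Suz12 cKO minus wild type, as the edgeR estimate with its standard error (black) and the range over 14 other settings (grey bars). The standard error is 0.29 for Dusp2 and 0.51 for Dusp1 but above 2 for Dusp6, Dusp7, Dusp8, Dusp10, Dusp14 and Dusp16.

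Presence in one library and near absence in another was common at these levels. Dusp6, Dusp8, Dusp14 and Dusp16 each reached 10 CPM in at least 1 library yet stayed below 1 CPM in another, 4 of 10 against 36.9% of tested genes. Of the 1585 tested genes averaging 100 CPM or more, 1 did so, and of 8131 genes averaging 1 to 100 CPM, 45.3%. Each library but cKO replicate 2 lacked a count of 1 member: Dusp14 in wild type replicate 1, Dusp8 in wild type replicate 2, and Dusp6 in cKO replicates 1 and 3.

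The titles come in a short and a long style, which the labels do not call a batch. Between short-titled libraries (cKO replicates 1 and 2 against wild type replicate 1), differences on the log2(CPM + 1) scale were -0.37 for Dusp1, 0.68 for Dusp2, 0.64 for Dusp5, -2.42 for Dusp6, 5.29 for Dusp14 and -1.81 for Dusp16. Between long-titled libraries (cKO replicate 3 against wild type replicate 2) they were 0.46, 0.07, 0.55, -5.70, 0.81 and 3.88 in the same order. Dusp4, Dusp7, Dusp8 and Dusp10 were positive in both, from 0.15 to 1.54 and from 0.46 to 3.63. Dusp1 and Dusp16 thus took opposite signs in the title groups and the other 8 genes the same sign, with 1 wild type library in each group and no test.

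Several phosphatase genes peaked in the same library. Knockout replicate 2 had the top value for 5 of the 10 members (Dusp1, Dusp2, Dusp5, Dusp7 and Dusp14) and for 23.8% of tested genes. The 10 genes summed to 2464 CPM there, against 1293 to 1701 CPM in the other libraries. Immediate early genes, many of which MAP kinase signalling or tissue dissociation induces within minutes, often had their top value in the same library. The list of them used here also holds heat shock genes. Of its 26 genes 14 were highest in cKO replicate 2, and the list summed to 10589 CPM there against 6402 to 7688 CPM elsewhere. Zfp36, which encodes an RNA-binding protein that shortens the life of cytokine transcripts, measured 1601 and 1346 CPM in the wild type pair and 1148, 2676 and 1509.9 CPM in the cKO group. Zfp36 and the nuclear receptor gene Nr4a1 put the 5 libraries in the same order as Dusp1, as did 1.20% of tested genes. Fos, a subunit of AP-1, measured 707 and 567 CPM in the wild type pair and 274, 828 and 472 CPM in the cKO group, and like Dusp1 it had its lowest and its highest value in cKO libraries. This library was also the deepest and had the highest keratinocyte sum, and the part of these in its values was not tested.

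**Figure D4:**
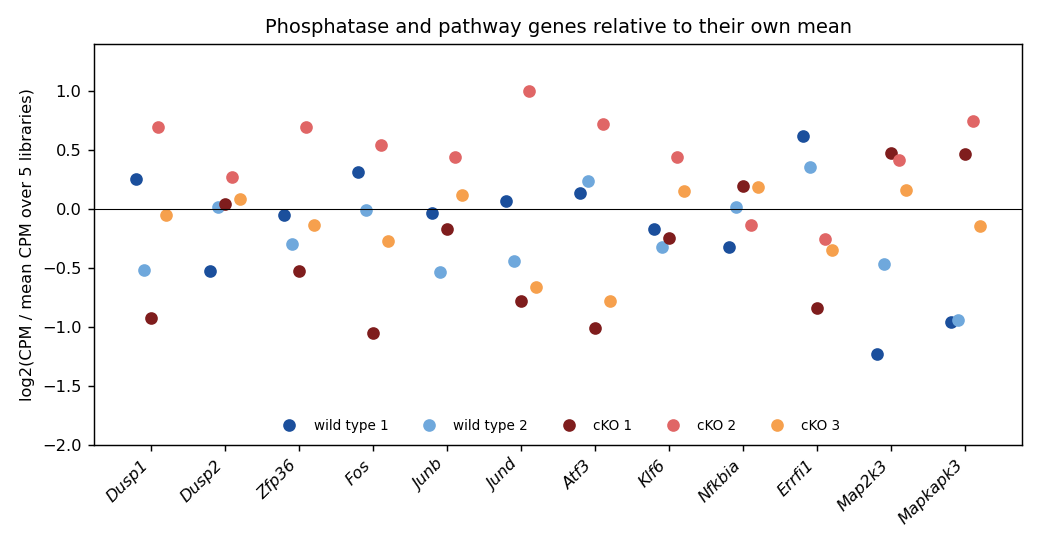
Level of Dusp1, Dusp2 and 10 genes of the fixed pathway lists in each library, as log2 of CPM over the gene's own mean across the 5 libraries. For Dusp1, Zfp36 and Fos cKO replicate 2 is highest and cKO replicate 1 lowest, whereas for Map2k3 and Mapkapk3 the 3 cKO libraries lie above both wild type libraries and for Errfi1 below them.

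The genes whose pattern over the 5 libraries was closest to that of the 3 most abundant members were found by the root mean square difference of log2(CPM + 1), centred on each gene's mean, over 6365 genes. For Dusp1 these were Wwp2 (0.11), Carhsp1 (0.13) and Cnp (0.13), where Dusp1 itself deviated by 0.57 from its mean. For Dusp2 they were Aplp2 (0.08), Mcl1 (0.09) and Celf2 (0.09), with a deviation of 0.27 for Dusp2. For Dusp5 they were Rtn3 (0.07), Emp1 (0.10) and Tm9sf2 (0.12), with a deviation of 0.53. Among the members themselves the closest pair was Dusp5 and Dusp7 (0.15). With 5 libraries such likeness is a description only.

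The rest of the pathway was read from fixed lists, and none of their genes was called by edgeR. Among other dual-specificity phosphatases, 9 of 16 could be tested, with 6 higher and 3 lower in cKO and a median log2 fold change of 0.20. Dusp9, the remaining cytoplasmic relative of Dusp6 and Dusp7, had no count in any library. Dusp23 had counts only in cKO replicates 1 and 3, at 8.45 and 22.4 CPM. Dusp3, which encodes a small phosphatase of ERK and JNK, measured 15.2 and 0.825 CPM in the wild type pair and 16.5, 35.4 and 12.3 CPM in the cKO group. Dusp18 lay at 27.6 and 7.07 CPM and at 22.0, 32.5 and 22.0 CPM.

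Of the 14 MAP kinase genes on the list, atypical ones among them, 8 could be tested, with 6 higher and 2 lower and a median of 0.45. Mapk3, which encodes an ERK kinase, averaged 99.5 ± 56.2 CPM (SD, n = 2) in the wild type pair, against 66.0 ± 36.2 CPM (SD, n = 3) in the cKO group. Mapk9, a JNK gene, had 6 and 0 counts in the wild type pair, against levels of 11.6, 13.8 and 8.84 CPM in cKO (log2 fold change 6.10, standard error 3.24), and the JNK genes Mapk8 and Mapk10 had no count in any library. Mapk6, an atypical MAP kinase gene, measured 233 and 38.1 CPM in the wild type pair and 165, 266 and 191 CPM in the cKO group.

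Upstream of them, 26 of 32 genes for MAP kinase kinases and their activators were tested, with 14 higher, 12 lower and a median of 0.08. The groups did not overlap for 7 of the 26 with cKO higher and for 3 with cKO lower, against 8.87% and 10.2% of all tested genes. In the same order these counts were 0 and 0 for the other dual-specificity phosphatases, 1 and 0 for the MAP kinases, 1 and 2 for the feedback inhibitors, 1 and 2 for the downstream genes and 2 and 0 for the immediate early genes. Map2k3, which encodes a kinase that activates p38, measured 182 and 309 CPM in the wild type pair and 594, 571 and 478 CPM in the cKO group. Every cKO library was above every wild type library, with a log2 fold change of 1.16 and a standard error of 0.34 (edgeR adjusted p = 0.968, DESeq2 adjusted p = 0.0484). Nras, which encodes a Ras GTPase, measured 145 and 56.2 CPM in the wild type pair and 33.2, 40.1 and 28.8 CPM in the cKO group. Its cKO libraries lay below both wild type ones, and it did not pass over all genes (edgeR adjusted p = 0.968).

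Other feedback inhibitors of Ras and ERK signalling were split, with 5 of the 10 tested higher and 5 lower (17 on the list, median 0.19). Spred2, which encodes an inhibitor of Ras activation, had 284 and 327 counts in wild type and 1, 2 and 4 counts in cKO replicates 1 to 3. It was the gene of these lists with the lowest DESeq2 adjusted p (0.0158), and it did not pass with edgeR (adjusted p = 0.968). Errfi1, which encodes an inhibitor of the EGF receptor, measured 251 and 209 CPM in the wild type pair and 91.2, 137 and 128 CPM in the cKO group, which gives a log2 fold change of -0.95 with standard error 0.35 (edgeR adjusted p = 0.968). Rasa2, which encodes a Ras GTPase-activating protein, lay at 105 and 66.5 CPM and at 299, 165 and 111 CPM. The Sprouty genes Spry3 and Spry4 had no count in any library. Spry1 had counts only in cKO replicates 1 and 2, at 14.7 and 6.80 CPM, and Spry2 reached at most 6.70 CPM.

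Downstream, 19 of 22 kinase and transcription factor genes were tested, with 13 higher and 6 lower and a median of 0.51. Mapkapk3, which encodes a kinase activated by p38, measured 48.9 and 49.3 CPM in the wild type pair and 131, 159 and 85.7 CPM in the cKO group, with no overlap (log2 fold change 1.35, standard error 0.45, edgeR adjusted p = 0.968). Atf2 lay at 22.8 and 7.72 CPM and at 36.7, 94.8 and 20.4 CPM. Elk3, an ETS factor gene, lay at 7.20 and 12.1 CPM in wild type, at 0.814 CPM in cKO replicate 2 and without a count in the other cKO libraries. Among the immediate early genes 16 of 26 were higher and 10 lower, with a median of 0.22. Myc measured 34.4 and 31.0 CPM in the wild type pair and 94.98, 136 and 42.6 CPM in the cKO group, and Fosl1 at 0 and 0.295 CPM and at 5.69, 2.66 and 6.78 CPM. Hspa1b measured 278 and 109 CPM in the wild type pair and 54.1, 179.8 and 98.3 CPM in the cKO group.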

How the data were processed

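The authors deposited raw counts per gene by featureCounts with mm10 (per the submitters' processing notes), with a gene length (other values in bases) per the file headers. For the aligner, versions, annotation and use of strand, nothing is given in the sources used here. Symbols came from RefSeq (GRCm38.p6) and GENCODE vM21 by NCBI gene ID, for 25293 of 27179 genes. The per-sample files were identical to the series table. RefSeq lncRNA genes absent from the table overlap Dusp6, Dusp8 and Dusp16, so their counts are uncertain by that much.

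The main test was edgeR 4.0.16 in R 4.3.3 (filterByExpr at a minimum count of 10, TMM, robust quasi-likelihood F test on genotype, Benjamini-Hochberg over all tested genes, threshold 0.05). Standard errors were derived from F. Alternatives used DESeq2 1.42.0, limma 3.58.1, other factors and filters, a replicate block, title style, and each library left out. P-values reflect only how these libraries vary, which may be partly technical.

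The members and lists were chosen with earlier results of these data known. Named were the members, Suz12, the 3 genes per list with the smallest edgeR p, and the nearest genes in pattern; 1 gene that this rule names is not reported here. Chosen after their values were seen were Dusp9, Mapk8, Mapk10, Spry1, Spry2, Spry3, Spry4, Zfp36, Nr4a1, Fos, the other early genes plotted and the single cell type markers named.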

Additional observations from a re-analysis of the deposited data

How the results depend on the processing

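Over 14 alternatives the 10 genes gave 140 fold changes, of which 134 kept their direction, 6 reversed and 0 passed the threshold. With limma-voom the log2 fold change of Dusp1 was -0.026, that of Dusp6 -8.21 and that of Dusp14 5.85, against 0.13, -1.64 and 2.93 with edgeR. With 1 library left out at a time, it ranged from -0.34 to 0.58 for Dusp1, from -0.20 to 3.27 for Dusp10 and from -0.79 to 4.27 for Dusp16. The number of members whose cKO libraries all lay above wild type, 2 with all libraries, ranged from 2 to 7 (7 without wild type replicate 1, 4 without cKO replicate 1), and that of members with all below from 0 to 1, the 1 arising without wild type replicate 1 or cKO replicate 2. Fewer libraries make separation easier by construction. Over all genes, DESeq2 called 191 and the fit with a replicate block 1, where edgeR called 0; the cause was not tested. The labels give wild type and cKO the replicate numbers 1 and 2, but nothing says that a number marks a shared litter or day. Deviations from the group means correlated at -0.03 for replicate 1 and -0.02 for replicate 2, so the numbers were not taken as pairs. Dusp6, Dusp7, Dusp8, Dusp10, Dusp14 and Dusp16 had standard errors above 2 on the log2 scale. Differences of several log2 units in them could therefore go uncalled with these libraries, as did the fitted 3.51 of Dusp8 and 2.93 of Dusp14. In the fits that leave out 1 wild type library, the remaining one is assumed to vary like the cKO libraries.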
